A study of Mus musculus with 6 samples.

Results

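The 6 genes described here, Cybb, Cyba, Ncf1, Ncf4, Rac2 and Hvcn1, encode the phagocyte NADPH oxidase and the proton channel that works beside it. Their open chromatin was read from assay for transposase-accessible chromatin (ATAC-seq) peak lists of mouse peripheral blood. A peak counted for a gene when its summit, the position of its highest read pileup, lay in the annotated gene body or within 3 kb of an annotated start (GENCODE annotation of mouse GRCm39). Peaks of the 6 libraries that overlapped by at least 1 bp were joined into regions. The rule takes these genes by name and uses no measured value, though the genes were chosen with earlier results of these data known. They held 25 of the 62876 regions of the whole series.

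The series compared blood leukocytes of mice after high-altitude de-acclimatization (HADA) with those of control mice, with 3 libraries in each group. By the methods of the study, the animals were male C57BL/6j mice. HADA mice lived for some weeks in a hypobaric hypoxic chamber and were then returned to normoxia, whereas control mice stayed in normoxia throughout. The mice were bought as young adults. No genetic alteration is named for either group, and the day of bleeding for these libraries is not given in the sources used here. By the labels and methods the cells were leukocytes left after lysis of red cells, with no sorting described, whereas the results text of the study calls them mononuclear cells, a preparation that would hold few neutrophils. Neutrophil, monocyte, B cell and T cell markers all had peaks, and each library was read as a mixture of cell types. The labels do not say whether each library came from its own mouse, and p-values therefore measure the spread between these libraries.

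The phagocyte NADPH oxidase moves electrons from NADPH across a membrane to oxygen and makes superoxide, which neutrophils, monocytes and macrophages use to kill microbes. The catalytic subunit gp91phox (Cybb) and its partner p22phox (Cyba) sit in the membrane, while p47phox (Ncf1), p40phox (Ncf4) and other subunits wait in the cytosol and join them, with a Rac GTPase, when the cell is stimulated. Loss of a subunit causes chronic granulomatous disease. B lymphocytes also carry the oxidase, and the voltage-gated proton channel encoded by Hvcn1 balances the charge that the oxidase moves in both phagocytes and B cells.

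The lists held 41475, 41214 and 34045 peaks in control 1, 2 and 3 and 44401, 44044 and 45799 in HADA 1, 2 and 3. Heights were compared as relative height, which is the pileup at a summit divided by the library's median over the 23970 regions that had a peak in all 6 lists, so that a relative height of 1 is the median shared region of that library. That median was 49 to 58 reads in control and 77 to 92 reads in HADA libraries. Differences are given as HADA minus control on the log2 scale of relative height with the standard error (SE) and the Benjamini-Hochberg adjusted p of limma over all shared regions. Of all shared regions, 42.9% passed an adjusted p of 0.05, with 18.4% higher and 24.5% lower in HADA.

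The cell types in the mixture were read from lists of marker genes. The relative heights of neutrophil markers summed to 11.7 to 32.0 in the control and to 4.35 to 7.68 in the HADA libraries. All 6 of their start regions that could be tested were lower in HADA (limma adjusted p under 0.05), 8 of 10 genes had a peak, and Camp and Ngp were at 0. Monocyte markers summed to 19.9 to 24.1 in control and 12.3 to 13.2 in HADA, with 6 of 6 tested start regions lower. Nr4a1 alone gave 9.36 to 10.3 of the control and 7.04 to 7.35 of the HADA sums. Of the monocyte genes without a tested start region, Fn1 and Ace were lower in HADA. The groups overlapped at Ccr2 (0, 0.382 and 0 in control, 0.315, 0.545 and 0.185 in HADA) and at Ly6c2 (1.5, 1.11 and 1.41, then 1.67, 1.05 and 1.27). B cell markers summed to 1.96 to 17.3 in control and 42.4 to 46.0 in HADA, with 4 of 4 tested start regions higher. T cell markers summed to 18.5 to 21.0 in control and 24.5 to 25.7 in HADA, with 1 of 7 tested start regions higher and 1 lower. The lowest B cell and the highest neutrophil sum were both in control 3. NK cell markers ranged from 1.31 to 2.17 in control and 2.86 to 3.58 in HADA with Klrk1 at 0, and 0 of 3 tested start regions passed in limma, adjusted or unadjusted (the median log2 difference of the 3 was 0.45). Eosinophil and basophil markers ranged from 1.90 to 3.33 and 4.62 to 5.44, with 0 of 1 passing in limma (1 of 1 at an unadjusted p under 0.05, at Siglecf, which was lower in HADA at a log2 difference of −0.59, opposite to the sum) and with Ccr3, Epx, Mcpt8, Ms4a2 and Fcer1a at 0. Erythroid and platelet markers ranged from 2.88 to 3.20 and 4.85 to 5.59, with 1 of 2 passing and with Alas2, Gp1ba and Gp9 at 0. In blood as a mixture, fewer cells of a type and less open chromatin per cell cannot be told apart.

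Of the 25 regions at the NADPH oxidase genes, 11 were present in all 6 lists and could be tested for height. The test was passed by 6 of them, namely 3 higher in HADA, all at Hvcn1, and 3 lower in HADA, at Cyba, Ncf1 and Ncf4, which made 54.5% of the 11 against the 42.9% of all shared regions. The groups did not overlap in 9 of 11 regions, with HADA above in 5 and below in 4, and 60.6% of all shared regions were apart in the same way. The median log2 difference over the 11 regions was 0.03, against −0.04 over all shared regions. The calls thus went both ways, and the genes are described one by one in the order of their roles.

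**Figure D1:**
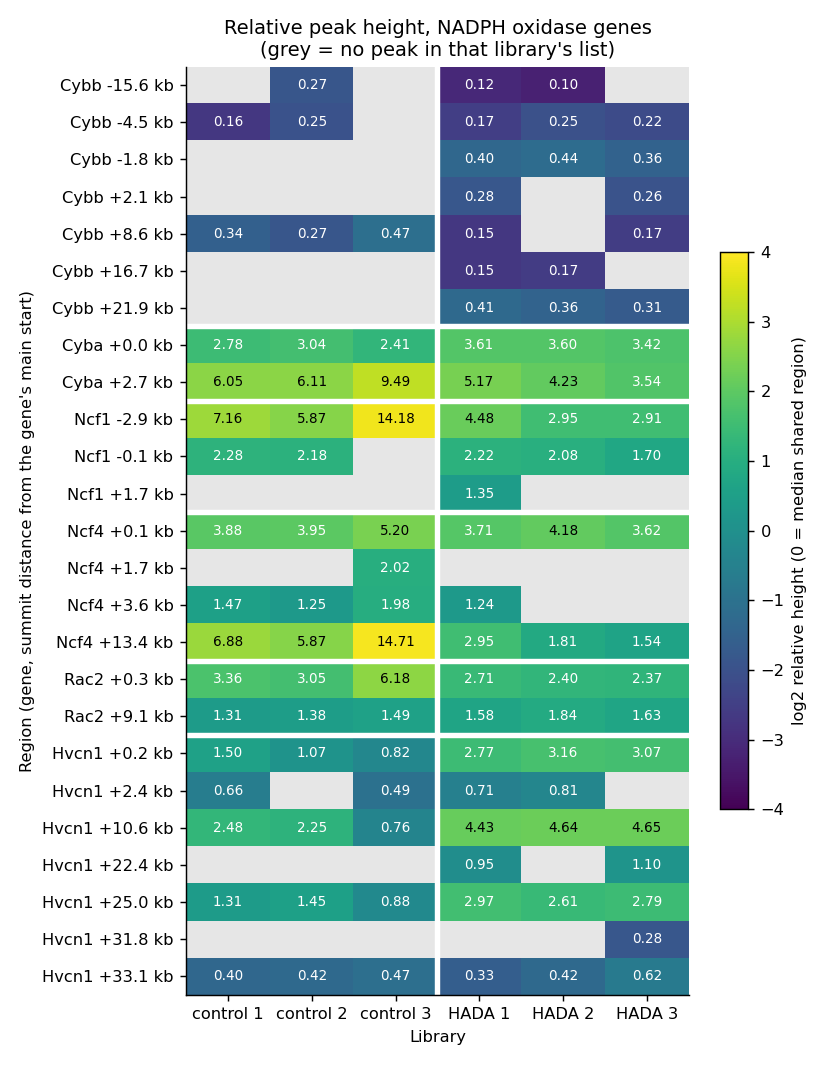
Relative peak height (colour, log2 scale, with the linear value printed in each cell) of the 25 regions at the NADPH oxidase genes, in rows by gene and distance of the summit from the main start in kb, for the 3 control and 3 HADA libraries in columns. Grey cells had no peak in that library's list, and the tallest cells, 14.2 at Ncf1 and 14.7 at Ncf4, are both in control 3.

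The sequences printed for single genes are windows of 201 bases of GRCm39 around a summit, read on the strand of the gene, in which the summit is the middle base. They are given for 4 of the 6 called regions and for the start of Cyba and, for Cybb, for the regions and promoter that set it apart, which were chosen after the values had been seen. Stretches annotated as untranslated exon are left out, and for this reason the start windows of Ncf4, Rac2 and Hvcn1 are not shown. Capitals mark each match, on either strand, to 8 short motifs of factors that act in blood cells or in the response to oxidants: PU1 (GAGGAA), an ETS-IRF composite (GGAANNGAA), CEBP (TTGCNNAA), AP1 (TGANTCA), RUNX (TGTGGT), the antioxidant response element ARE (TGACNNNGC), EBF (CCCNNGGG) and the GATA motif, read as AGATAA. The PU1 and ETS-IRF motifs can share letters. PU1 letters were present in 24.5% of all 62876 windows and in 8 of the 25 windows of the oxidase genes, ETS-IRF letters in 6.9% and 6, RUNX letters in 17.6% and 8, EBF letters in 8.2% and 6, CEBP letters in 8.8% and 3, ARE letters in 8.1% and 3, GATA letters in 7.0% and 4, and AP1 letters in 5.6% and 1. A match describes the letters only.

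Cybb, which encodes the catalytic subunit gp91phox, had the lowest peaks of the 6 genes and no peak at a start. Cybb (ENSMUSG00000015340.11) is on the minus strand of chromosome X from 9301491 to 9354010 in GRCm39, with its main start at 9335570 and 5 annotated starts in all. It held 7 regions, none of them in all 6 lists, and no list had a peak with its summit within 1 kb of a Cybb start. Control libraries had 2, 3 and 1 peaks at the gene in replicate order, and HADA libraries had 7, 5 and 5. The groups did not overlap, with a mean of 2.0 ± 1.0 in control and 5.67 ± 1.15 in HADA (SD, n = 3 each, two-sided exact permutation p = 0.1, the smallest that 3 against 3 libraries allow). The summed relative height was 0.50, 0.80 and 0.469 in control and 1.70, 1.32 and 1.32 in HADA, without overlap (exact permutation p = 0.1). A region with no peak counts as 0 in this sum. At the Cybb regions absent from a list, the smallest relative height that would have been called was 0.0988 to 0.143 in HADA and 0.121 to 0.265 in control libraries, so that lower peaks could enter the HADA sums. Of the marker lists, the B cell, T cell, NK cell, eosinophil and basophil, and erythroid and platelet sums had the same order of groups, and their part in the Cybb result was not tested. Even the highest Cybb sum lay below the lowest sum of each other gene. Cells of male mice carry chromosome X in fewer copies than the chromosomes of the other genes, and heights were not corrected for copy number.

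Cybb had 2 regions with a peak in the 3 HADA lists and in no control list, and 11.3% of the 38906 regions outside the shared set had that pattern. The first lay 1763 bp upstream of the main start, at chrX:9336966-9337479, with relative heights of 0.402, 0.442 and 0.358 in HADA 1, 2 and 3, from pileups of 37, 34 and 29 reads. The second lay in intron 8, at chrX:9313422-9313944, with 0.413, 0.364 and 0.309, from 38, 28 and 25 reads. Peaks of the same relative height would have had 19 to 23 reads at the first region and 17 to 20 reads at the second in the control libraries, where pileups of 12 to 14 and of 8 reads would have been called. The presence of the peaks was compared by Fisher's exact test, two-sided, which gave p = 0.1 for each of these regions. The windows around both summits, and the part of the RefSeq promoter of Cybb (table of build GRCm38.p6, matched once in GRCm39) before its transcribed bases, read as follows.
Cybb upstream window, chrX:9337233-9337433, minus strand: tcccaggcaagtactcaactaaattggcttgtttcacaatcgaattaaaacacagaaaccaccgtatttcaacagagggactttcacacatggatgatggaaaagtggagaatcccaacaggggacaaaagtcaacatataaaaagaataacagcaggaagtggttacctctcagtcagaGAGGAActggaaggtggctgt
Cybb intron 8 window, chrX:9313566-9313766, minus strand: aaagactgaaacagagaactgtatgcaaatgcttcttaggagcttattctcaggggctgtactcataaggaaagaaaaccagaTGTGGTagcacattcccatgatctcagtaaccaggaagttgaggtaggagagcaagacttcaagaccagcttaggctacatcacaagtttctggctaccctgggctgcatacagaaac
Cybb promoter, chrX:9335571-9335813, minus strand: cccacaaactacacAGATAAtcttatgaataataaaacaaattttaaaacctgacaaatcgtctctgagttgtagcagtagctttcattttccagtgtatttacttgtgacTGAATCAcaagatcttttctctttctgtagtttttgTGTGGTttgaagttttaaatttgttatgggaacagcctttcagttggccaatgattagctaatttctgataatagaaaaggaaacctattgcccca
The upstream window held 1 PU1 match at base 181, and the intron 8 window held 1 RUNX match at base 84. The promoter stretch held GATA, AP1 and RUNX letters at bases 15, 112 and 148. The transcribed bases cut from it held ETS-IRF and PU1 letters, at bases 255 and 260 of the full 300. None of the 6 lists had a peak that overlapped the full promoter.

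The other 5 regions of Cybb were low in every library that had them. In intron 3, at chrX:9326750-9327221, the order of the groups was opposite to the gene's sum, with relative heights of 0.345, 0.273 and 0.469 in control and 0.152 and 0.173 in HADA 1 and HADA 3, and no peak in HADA 2. With HADA 2 dropped, the log2 difference was −1.12 ± 0.32 (SE, limma adjusted p = 0.0233 over the 31064 regions with a peak in at least 2 lists of each group, of which 42.6% passed). A region in intron 1 appeared in HADA 1 and HADA 3 only, at 0.283 and 0.259, and that in intron 6 in HADA 1 and HADA 2 only, at 0.152 and 0.169. A region 4509 bp upstream of the main start was in all lists except that of control 3, at 0.155 to 0.255, with a log2 difference of 0.09 ± 0.33 (SE, control 3 dropped, limma adjusted p = 0.836). The remaining region, at −15644 bp from the main start but within the annotated span of the gene, was in control 2, HADA 1 and HADA 2 at 0.273, 0.120 and 0.104. When the same number of strongest peaks was kept from each library, Cybb had 1, 2 and 1 peaks in control and 3, 2 and 3 in HADA, and the groups overlapped in number. Their summed relative height was then 0.345, 0.545 and 0.469 in control and 1.10, 0.805 and 0.926 in HADA, and the groups were apart (exact permutation p = 0.1).

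**Figure D2:**
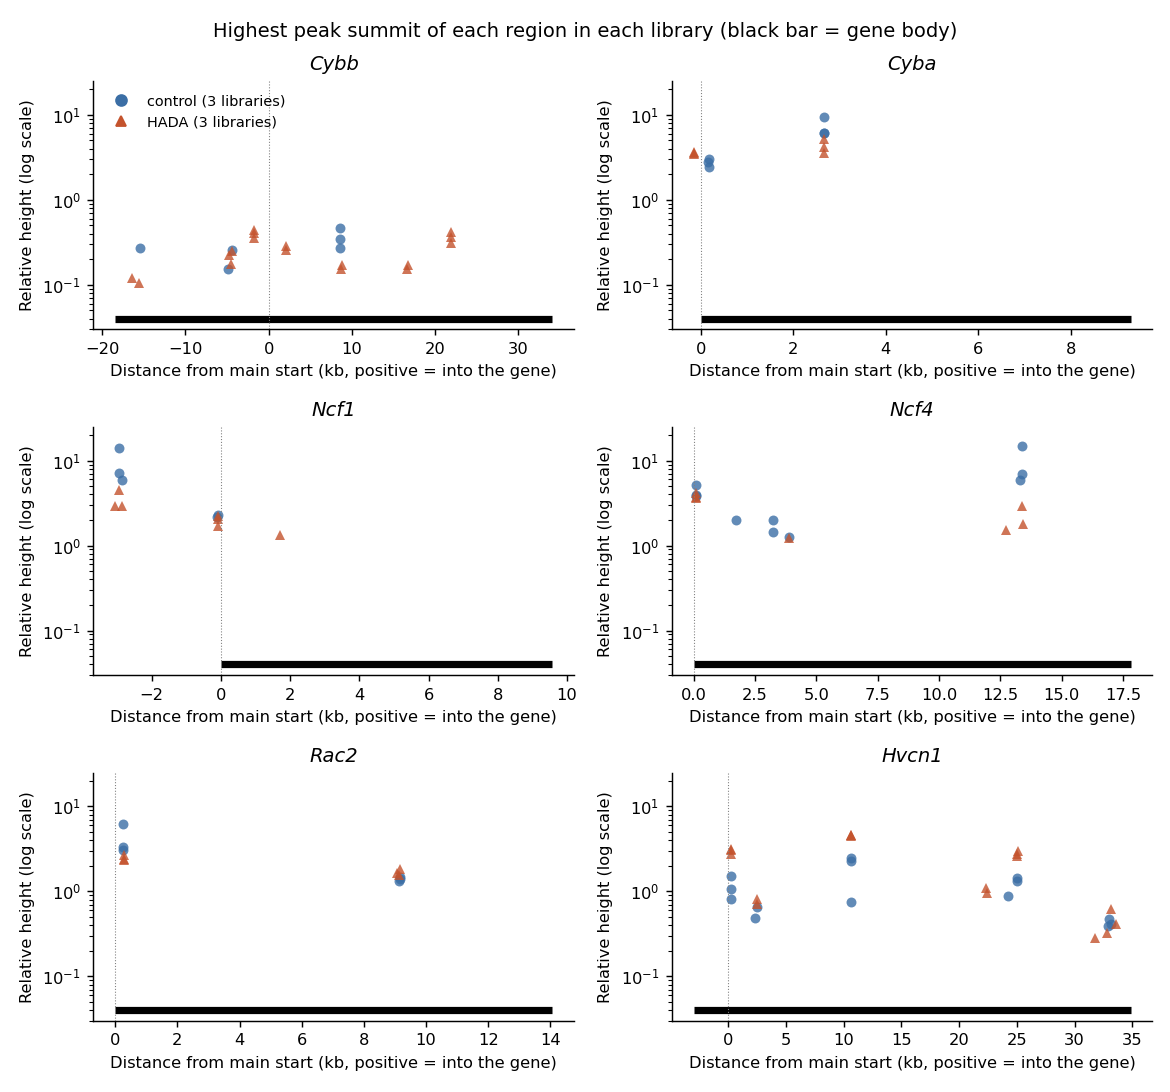
Relative height (log axis) of the highest summit of each region against its distance in kb from the main start of each of the 6 genes, with control libraries as blue circles, HADA libraries as red triangles and the gene body as a black bar. Cybb peaks stay below 0.5 and none is at the start, whereas each of the other 5 genes has a peak at its start in at least 5 libraries.

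Cyba, which encodes p22phox, the membrane partner that stabilises gp91phox, had 2 regions and both were in all 6 lists. The intron 1 region was lower in HADA, and the start region, whose difference had the opposite sign, did not pass the test. Cyba (ENSMUSG00000006519.13) lies on the minus strand of chromosome 8 from 123150422 to 123159706. In intron 1, at chr8:123156662-123157567 and 2669 bp from the main start, relative heights were 6.05, 6.11 and 9.49 in control, and in HADA they were 5.17, 4.23 and 3.54. Every HADA library was below every control library, and the log2 difference was −0.73 ± 0.21 (SE, limma adjusted p = 0.0248). The call was lost without HADA 2 (adjusted p = 0.0888) or HADA 3 (0.107), and when heights were set over the background of each library (−0.35, 0.203). Neutrophil and monocyte marker sums were lower in the same libraries, and their part in the result was not tested.

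At the start of Cyba, at chr8:123158903-123160255, relative heights were 2.78, 3.04 and 2.41 in control, and in HADA they were 3.61, 3.60 and 3.42. The groups did not overlap, but the log2 difference of 0.38 ± 0.14 (SE) did not pass (limma adjusted p = 0.0559), and it passed in 4 of 13 alternatives. These were over the background (0.76, adjusted p = 0.00929), under quantile normalization (0.0415), without control 2 (0.0342) and without control 3 (0.0478), while without a HADA library the adjusted p was 0.141 to 0.180. In control 1, 2 and 3 the summit lay 163, 184 and 174 bp inside the gene, and in HADA 1, 2 and 3 the summit lay upstream of the main start, at −132, −147 and −149 bp. The group medians were 321 bp apart, and 3.66% of all shared regions had summits that were apart between groups with medians at least 200 bp from each other. This limit was set after the Cyba values had been seen, and the shift has no test. The windows around both summits and around the intron 1 summit read as follows, with the first cut to its bases outside untranslated exon.
Cyba start, control summits, chr8:123159432-123159606, minus strand: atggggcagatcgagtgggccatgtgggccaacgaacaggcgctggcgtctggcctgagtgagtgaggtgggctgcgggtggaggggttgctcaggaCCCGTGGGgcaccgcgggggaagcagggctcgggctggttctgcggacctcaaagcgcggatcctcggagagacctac
Cyba start, HADA summits, chr8:123159753-123159953, minus strand: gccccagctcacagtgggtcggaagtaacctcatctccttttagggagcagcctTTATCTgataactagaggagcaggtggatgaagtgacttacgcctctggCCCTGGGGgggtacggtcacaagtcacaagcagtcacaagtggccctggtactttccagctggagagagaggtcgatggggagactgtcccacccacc
Cyba intron 1 window, chr8:123156937-123157137, minus strand: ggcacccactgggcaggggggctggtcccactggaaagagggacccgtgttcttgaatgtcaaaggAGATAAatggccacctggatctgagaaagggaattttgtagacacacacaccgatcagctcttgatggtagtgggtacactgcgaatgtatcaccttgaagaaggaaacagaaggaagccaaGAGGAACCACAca
The window of the control summits held 16 CG pairs and a GC content of 68.2% over its full 201 bases, and the window of the HADA summits held 4 CG pairs and 56.7%. EBF letters stood at base 98 of the first printed stretch and at base 104 of the second, which also held GATA letters at base 55. The intron 1 window held GATA letters at base 67 and a PU1 match at base 189 whose last letters run into a RUNX match at base 194. Summed over both regions, Cyba had relative heights of 8.83, 9.15 and 11.9 in control and 8.78, 7.83 and 6.96 in HADA (exact permutation p = 0.1), and over the background the groups overlapped (exact permutation p = 0.8). The direction of this sum turned over the background, from a log2 ratio of −0.34 to 0.05, and with peaks within 1 kb of a start alone the HADA mean was higher by 0.802.

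Ncf1, which encodes the organiser p47phox that carries the cytosolic subunits to the membrane, was lower in HADA at its tallest region. Ncf1 (ENSMUSG00000015950.15) lies on the minus strand of chromosome 5 from 134248907 to 134258479. The region 2934 bp upstream of the start, at chr5:134260542-134262239, had relative heights of 7.16, 5.87 and 14.2 in control and 4.48, 2.95 and 2.91 in HADA. All HADA libraries were below all control libraries, with a log2 difference of −1.32 ± 0.31 (SE, limma adjusted p = 0.0120), which is a level 2.49 times lower. Without HADA 2 the adjusted p was 0.0563 at −1.22. The neutrophil and monocyte sums also had their highest values in control 3 and their lower values in HADA, and their part in the result was not tested. The window around the summit, shown because it held the largest difference at this gene, had no match to any of the 8 motifs.
Ncf1 upstream window, chr5:134261313-134261513, minus strand: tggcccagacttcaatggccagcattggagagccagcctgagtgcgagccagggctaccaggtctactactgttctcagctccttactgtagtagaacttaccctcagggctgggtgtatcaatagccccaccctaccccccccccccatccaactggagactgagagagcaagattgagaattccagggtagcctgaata
At the start itself, 86 bp upstream, peaks were present in all lists except that of control 3, at 2.28 and 2.18 in control 1 and 2 and at 2.22, 2.08 and 1.70 in HADA. The groups overlapped there, and the log2 difference with control 3 dropped was −0.17 ± 0.18 (SE, limma adjusted p = 0.483). A peak in intron 2 was in HADA 1 alone, at 1.35. The summed relative height of Ncf1 was 9.43, 8.05 and 14.2 in control and 8.04, 2.08 and 4.62 in HADA (exact permutation p = 0.1), and over the background the groups overlapped (exact permutation p = 0.2). The lowest of these values leaves out the upstream peak of HADA 2, whose summit at −3053 bp lies just past 3 kb. With the whole region counted, the relative sum of HADA 2 was 5.03 and the groups were apart on that scale. With peaks within 1 kb of a start alone, where control 3 had none, the direction turned, from −5.64 to 0.963 (HADA minus control).

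Ncf4, which encodes p40phox, the subunit that holds the oxidase on phagosome membranes, had the largest difference of the 11 regions on the relative height scale, deep inside the gene and not at its start. Over the background Hvcn1 intron 2 (1.88) and the Hvcn1 start (1.83) differed more than this region (−1.68), and by fold rank Cyba intron 1 did (−0.94 against −0.76). Values by fold rank are differences in normal scores of the rank of the fold enrichment, not log2 differences. Ncf4 (ENSMUSG00000071715.14) lies on the plus strand of chromosome 15 from 78128982 to 78146784. In intron 7, at chr15:78141350-78142964, relative heights were 6.88, 5.87 and 14.7 in control, and in HADA they were 2.95, 1.81 and 1.54. The pileups behind them were 399, 323 and 721 reads in control and 271, 139 and 125 reads in HADA. The highest HADA library was below the lowest control library, also in reads. The log2 difference was −2.06 ± 0.35 (SE, limma adjusted p = 0.00629), a level 4.17 times lower, and 1.30% of all shared regions had a lower value. It passed in all 13 alternatives that gave a value, with adjusted p of at most 0.0382. Differences on the log2 scale ran from −2.33 to −1.66, and that by fold rank was −0.76 in normal scores. The libraries stood in the same order at this region and in the neutrophil and monocyte marker sums, from control 3, control 1 and control 2 to HADA 1, 2 and 3. The part of neutrophil and monocyte numbers in the result was not tested.
Ncf4 intron 7 window, chr15:78142267-78142467, plus strand: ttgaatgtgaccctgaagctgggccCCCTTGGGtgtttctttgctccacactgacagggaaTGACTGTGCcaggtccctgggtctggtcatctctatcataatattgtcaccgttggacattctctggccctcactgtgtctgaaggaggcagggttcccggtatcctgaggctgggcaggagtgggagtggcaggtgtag
This window held EBF letters at base 26 and ARE letters at base 62.

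At the start of Ncf4, in exon 1 at chr15:78128350-78129668, relative heights were 3.88, 3.95 and 5.2 in control, and in HADA they were 3.71, 4.18 and 3.62, with the groups overlapping. The log2 difference was −0.17 ± 0.16 (SE, limma adjusted p = 0.406), it was −0.03 without control 3, and its sign turned over the background (0.21) and by fold rank (0.60 in normal scores). The summit stood 94 bp inside the gene in 5 of the libraries. A region in intron 1 was in all control lists at 1.47, 1.25 and 1.98 and, of the HADA lists, in that of HADA 1 at 1.24 (Fisher's exact p = 0.4), and another in intron 1 was in control 3 alone at 2.02. Their summed relative height, with the other regions of the gene, was 12.2, 11.1 and 23.9 in control and 7.89, 5.99 and 5.16 in HADA, without overlap (exact permutation p = 0.1), whereas over the background the groups overlapped (exact permutation p = 0.2).

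**Figure D3:**
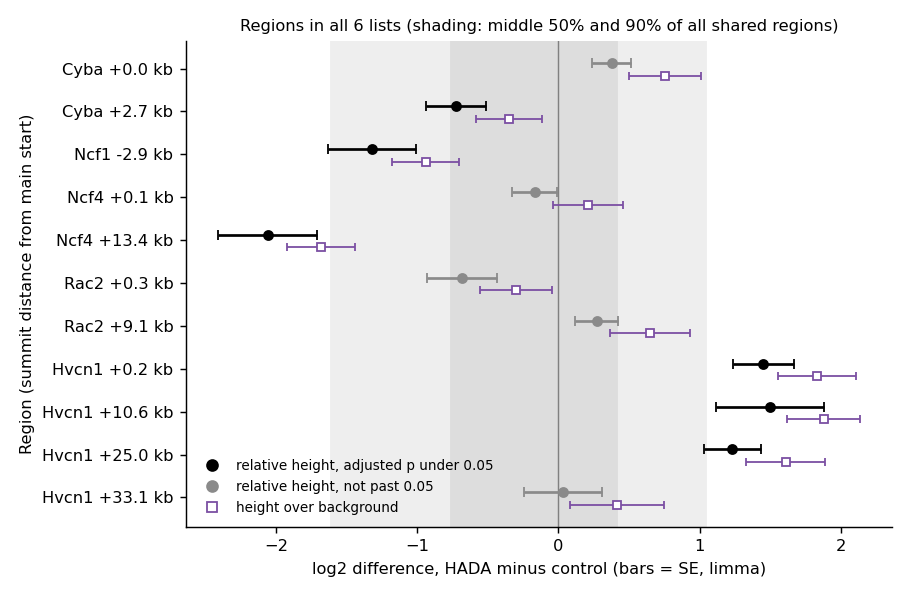
The log2 difference, HADA minus control, of the 11 regions in all 6 lists with its standard error from limma, as relative height (filled circles, black where the adjusted p was under 0.05) and as height over the library's background (open squares). Shading marks the middle 50% and 90% of all 23970 shared regions, and the Ncf4 intron 7 region (−2.06) lies to the left of it while 3 Hvcn1 regions (1.23 to 1.5) lie to the right.

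Rac2, the Rac GTPase that is largely restricted to blood cells and that switches the oxidase on, did not differ past the threshold in relative height at either region. Rac2 (ENSMUSG00000033220.9) lies on the minus strand of chromosome 15 from 78443367 to 78457429. At its start, in exon 1 at chr15:78455723-78457488, relative heights were 3.36, 3.05 and 6.18 in control, and in HADA they were 2.71, 2.40 and 2.37. The groups were apart, and the log2 difference of −0.68 ± 0.25 (SE) had a limma adjusted p of 0.0507. It passed in 6 of 14 alternatives. Without control 3 the difference was −0.36 with an adjusted p of 0.0291. The neutrophil and monocyte sums were highest in control 3 as well, and their part was not tested. The region in intron 5, at chr15:78447766-78448989 and also at the lncRNA gene Gm63166, had 1.31, 1.38 and 1.49 in control and 1.58, 1.84 and 1.63 in HADA, with a log2 difference of 0.27 ± 0.15 (SE, limma adjusted p = 0.173), and it passed over the background (0.65, adjusted p = 0.0467). The regions of Rac2 thus had opposite signs. The summed relative height was 4.67, 4.44 and 7.67 in control and 4.28, 4.25 and 4.0 in HADA (exact permutation p = 0.1), and over the background the groups overlapped (exact permutation p = 1.0).

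Hvcn1, which encodes the voltage-gated proton channel Hv1, was higher in HADA at its start and at a region each in introns 2 and 3, opposite in sign to the called regions of Ncf1 and Ncf4. Hvcn1 (ENSMUSG00000064267.15) lies on the plus strand of chromosome 5 from 122344867 to 122382736. At the start, in exon 1 at chr5:122347440-122348762, relative heights were 1.5, 1.07 and 0.816 in control, and in HADA they were 2.77, 3.16 and 3.07. The pileups were 87, 59 and 40 reads in control and 255, 243 and 249 reads in HADA. All HADA libraries were above all control libraries, with a log2 difference of 1.45 ± 0.22 (SE, limma adjusted p = 0.00628), or 2.74 times higher. Its difference was above that of 98.7% of all shared regions. In intron 2, at chr5:122356971-122358898, heights were 2.48, 2.25 and 0.755 in control, and in HADA they were 4.43, 4.64 and 4.65, with a log2 difference of 1.5 ± 0.38 (SE, limma adjusted p = 0.0153). In intron 3, at chr5:122371110-122373636, they were 1.31, 1.45 and 0.878 in control, and in HADA they were 2.97, 2.61 and 2.79, with 1.23 ± 0.20 (SE, limma adjusted p = 0.00628).

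The 3 HADA libraries were close to each other at these regions, while control 3 was the lowest library at each of them. Without control 3 the intron 2 difference was 0.95 (limma adjusted p = 9.39e-04), and without HADA 2 it no longer passed (1.49, adjusted p = 0.0575). By the rank of the fold enrichment none of the Hvcn1 regions passed, with adjusted p of 0.0687, 0.583 and 0.145 in the order given. The B cell, NK cell, and eosinophil and basophil marker sums were lowest in control 3 too and were higher in all HADA libraries. Their part in the Hvcn1 result was not tested. The window of intron 3, a called region, reads as follows.
Hvcn1 intron 3 window, chr5:122372794-122372994, plus strand: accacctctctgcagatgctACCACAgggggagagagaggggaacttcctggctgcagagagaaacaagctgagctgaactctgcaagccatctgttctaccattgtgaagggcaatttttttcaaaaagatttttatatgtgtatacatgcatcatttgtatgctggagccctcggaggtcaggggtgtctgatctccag
It held RUNX letters at base 21. Another shared region in exon 7, the last one, at chr5:122380498-122382122, where the gene Tctn1 also lies, had 0.397, 0.418 and 0.469 in control and 0.326, 0.416 and 0.617 in HADA. The groups overlapped there and the log2 difference was 0.03 ± 0.28 (SE, limma adjusted p = 0.929). Of the other 3 regions, that in intron 1 was in control 1, control 3, HADA 1 and HADA 2 at 0.490 to 0.805 (log2 difference 0.41 ± 0.27 SE with the other libraries dropped, limma adjusted p = 0.246), that in intron 2 in HADA 1 and HADA 3 only at 0.946 and 1.10, and that in exon 7 in HADA 3 only at 0.284. The summed relative height of Hvcn1 was 6.34, 5.2 and 3.41 in control and 12.2, 11.6 and 12.5 in HADA, with absent peaks counted as 0 and without overlap (exact permutation p = 0.1), and the groups were also apart over the background.

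**Figure D4:**
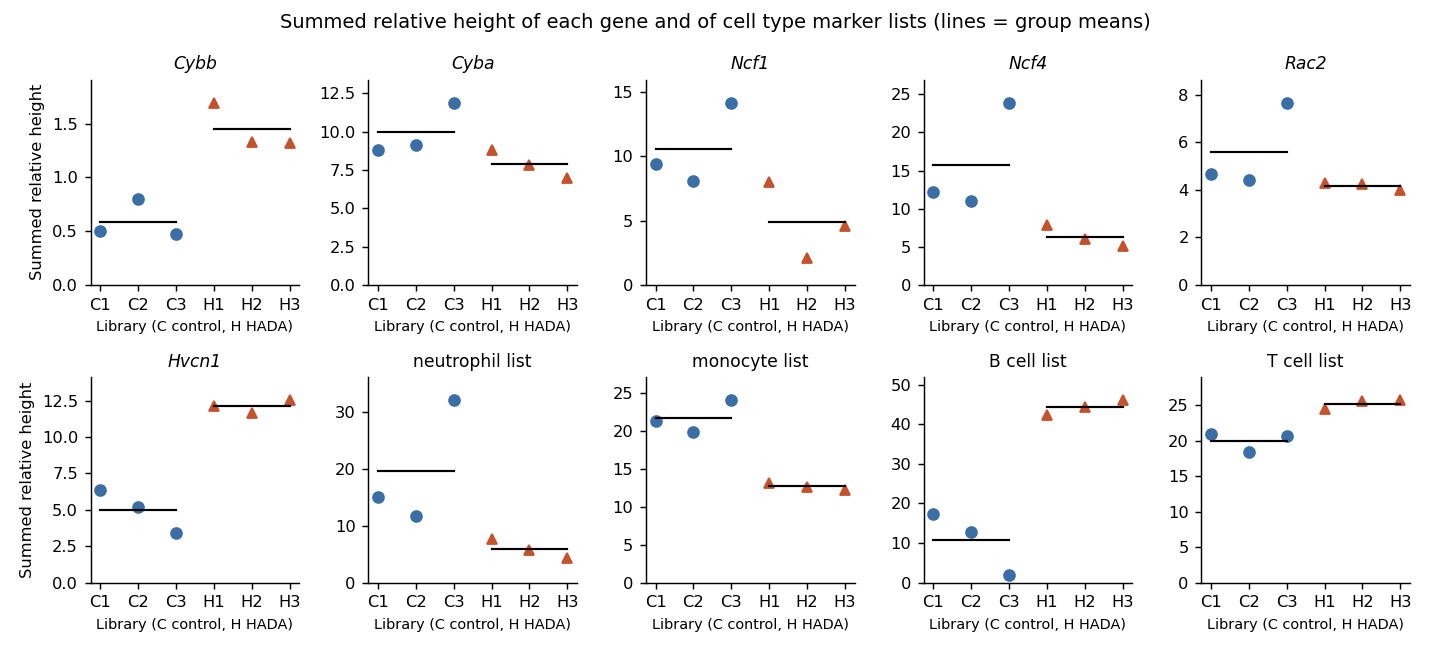
Summed relative height (linear axis from 0, each panel with its own range) of the 6 genes and of 4 cell type marker lists in each library, with control libraries as blue circles (C), HADA libraries as red triangles (H) and group means as lines. Cybb, Hvcn1, the B cell and the T cell list have all HADA libraries above all control libraries, and Cyba, Ncf1, Ncf4, Rac2 and the neutrophil and monocyte lists have them below, though the direction turned at Cyba over the background and at Cyba and Ncf1 with starts within 1 kb alone.

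Genes whose start region had the profile most like each oxidase gene over the 6 libraries were read from 10188 start regions of protein-coding genes, as the distance between log2 heights centred on their own mean. Cybb had no shared start region and could not be compared. For Cyba these were Ldb1 and Dtd1, at distances of 0.072 and 0.077 where the median gene was at 0.721. For Ncf1, whose shared region nearest the start is the upstream one, they were Slpi and Ccr1l1 (0.158 and 0.184, median 2.01), and both were lower in HADA, by log2 differences of −1.34 and −1.45. For Ncf4 they were Rps21 and Mob3c (0.083 and 0.092, median 0.678), for Rac2 Gm68747 and Ccdc63 (0.051 and 0.069, median 1.25), and for Hvcn1 Mterf2 and Prdm8 (0.117 and 0.170, median 1.80). With 6 libraries such a likeness is a description.

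Outside these 6 genes, the rest of the system was read at start regions, of which 29.6% passed over all protein-coding genes. Among further oxidase genes, Noxo1, a homologue of p47phox that serves a non-phagocyte oxidase, had relative heights of 1.17, 0.764 and 0.857 in control and 1.32, 1.32 and 1.38 in HADA (log2 difference 0.55 ± 0.20 SE, limma adjusted p = 0.0498), and Noxa1 and Duox2 had no peak in any list. Of 10 genes of the activating signal, 1 passed, namely Pla2g4a, a phospholipase that releases arachidonic acid, at 1.16, 0.909 and 1.55 in control and 0.761, 0.584 and 0.457 in HADA (−1.0 ± 0.27, adjusted p = 0.0174). Of 6 genes that handle the oxidants, 5 could be tested and 1 passed, namely Cat, which encodes catalase and breaks down hydrogen peroxide, at 1.86, 2.02 and 1.35 in control and 2.55, 2.74 and 2.91 in HADA (0.67 ± 0.18, adjusted p = 0.0176). The medians of the tested log2 differences were −0.01 for the activating genes and 0.23 for those that handle oxidants.

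The scale on which heights were compared bore on large and small differences alike, and 4 of the 6 calls were lost by rank. Setting each pileup over its library's background in place of the median shared region moved every difference up by 0.38 on the log2 scale, and 10 of the 11 regions kept their sign, with Ncf4's start as the exception. On that scale 5 regions of the oxidase genes were higher and 2 lower, and 64.6% of the calls over all shared regions were higher, against 43.0% on the relative height scale (49.8% of shared regions passed). By the rank of the fold enrichment, 9 of the 11 kept their sign and 2 passed, Cyba intron 1 (adjusted p = 0.0373) and Ncf4 intron 7 (0.0274), against 13.5% of all shared regions. All 6 called differences kept their sign on each scale. Over the background Cyba intron 1 lost its call, and by rank Ncf1 (−0.50, adjusted p = 0.173) and the 3 Hvcn1 regions lost theirs, with Hvcn1 intron 2 at 0.19.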

How the data were processed

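The 6 ATAC-seq libraries (3 control, 3 HADA) came from mouse blood leukocytes. Per the labels and the methods of the study, the authors used Trimmomatic for trimming, Bowtie2 for alignment to GRCm39, Picard to remove duplicate reads and MACS2 for the peaks, which the deposited lists hold for each library separately. Versions, calling options, any shift of reads for the transposase and the read totals are not given in the sources used here. The deposited columns used were the peak position, the fold enrichment over local background (a ratio), the −log10 of the p-value and the −log10 of the q-value. The deposited integer score repeats the q-value and was not used.

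The pileup at each summit and its local background were solved from the fold and the p-value together, under the Poisson model of MACS2, and gave back both values in 100% of peaks. On simulated summits the solution was tested before use. A pileup counts reads without correction for depth, so it was divided by the library's median over shared regions. The depth in reads is unknown, the median shared pileup was 49 to 92 reads, and counting error is largest at Cybb, with pileups of 8 to 38 reads.

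Peaks were merged at an overlap of 1 bp. Where a region held several peaks of a library, the highest was used. Shared regions were tested with limma 3.58.1 (R 4.3.3) with a variance trend, and p-values were Benjamini-Hochberg adjusted over 23970 regions at 0.05. Regions outside all 6 lists were compared by Fisher's exact test, and sums and peak numbers per gene by two-sided exact permutation (smallest p 0.1). Local background, height scale, quantile normalization, variance trend, region definition, a −log10 q of at least 5, a replicate block and each library left out were tried as alternatives. All regions were named, and sequences were chosen by p and nearness to a start, except for Cybb and Cyba. The Cyba start was shown at the summits of each group after their shift had been seen, and Cyba intron 1 was shown outside the order of p. The members, gene lists and tests were chosen with earlier results of these data known. Sums over whole regions were added after seeing the data. A start region is the shared region nearest to a start, within 3 kb. Promoters came from RefSeq, which matched Cybb, Cyba and Ncf1, and 0 peaks ended beyond a GRCm39 chromosome. Python 3.11.15 was used. A gene of the system lists and a window sequence are not reported here.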

Additional observations from a re-analysis of the deposited data

How the results depend on the processing

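At the oxidase genes, 3 regions were called higher and 3 lower, and these counts ranged from 2 to 4 and from 1 to 4 when each library was left out in turn, with the lowest values without HADA 2. Over all shared regions 4417 were higher and 5862 lower, with ranges of 1294 to 4936 and 2813 to 5910. Both low ends came without HADA 2, and without HADA 1 the counts were 2272 and 3808, without HADA 3 1849 and 3924. By the rank of the fold enrichment the counts were 1832 higher and 1396 lower, with 0 and 2 at the oxidase genes (3 and 2 at an unadjusted limma p under 0.05). Over the background they were 7710 higher, with 5 at the oxidase genes, and 4216 lower. Of 150 differences at single regions under an alternative, 125 kept their sign and their side of the threshold, 9 lost the call, 11 gained it and 5 turned sign. The sign turned at the start of Ncf4 by rank (0.60 in normal scores) and over the background (0.21), and in Hvcn1 exon 7 by rank (−0.45 in normal scores) and in 2 of the 6 leave-one-out fits, which ranged from −0.21 to 0.25, none of them called before or after. Of 114 gene sums and peak numbers, 103 moved by less than 1 SD and 11 by more. Without control 3, counted as within 1 SD, the difference of sums went from −1.42 to −0.378 at Rac2 and from −2.10 to −1.13 at Cyba. It went from −9.39 to −5.30 at Ncf4 and from −5.64 to −3.83 at Ncf1. At Hvcn1 it went from 7.11 to 6.33 and at Cybb from 0.857 to 0.797. With starts within 1 kb alone the difference of sums (HADA minus control) turned from −2.10 to 0.802 at Cyba and from −5.64 to 0.963 at Ncf1, over the background the log2 ratio of the Cyba sums turned from −0.34 to 0.05, and the difference in peak number turned at Hvcn1 with the same number of strongest peaks (1.0 to −0.333) and at Ncf1 without HADA 1 (0.333 to −0.167). Quantile normalization gave 56.1% of the calls as higher against 43.0%, and no cause of any of these changes was tested.

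The labels give both groups the same replicate numbers. Deviations from the group means correlated at −0.08, 0.08 and −0.38 for replicates 1, 2 and 3. Between libraries of different number they ranged from −0.474 (control 2 with HADA 1) to 0.488 (control 3 with HADA 1). With 3 libraries in each group the deviations depend on each other, so these values cannot decide whether the numbers pair the libraries. A replicate block gave 3330 regions higher and 5757 lower, with 3 and 4 at the oxidase genes. It added the Rac2 start, at an adjusted p of 0.0384 by limma.

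Depth limits what a missing peak says: at Cybb a pileup of 7 to 14 reads was the smallest that would have been called.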
